A study of Mus musculus with 6 samples.

Results

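Transcripts of 39 lysosomal genes were followed in mouse bone marrow-derived mast cells that had or had not been kept on fibroblasts. The 39 genes were the array probes named after 10 cathepsins and legumain (11 genes), 11 other hydrolases, 9 genes of the lysosomal membrane, of lipid transport and of regulation, and 8 genes of the proton pump, out of 29603 gene names on the array. The probe with the highest mean signal over the 6 arrays stood for a gene, and 25 of the 39 genes had a single probe. The probe of each of the 39 was well above background on all 6 arrays.

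The arrays held 6 groups with 1 array each, and every array carried RNA pooled from 3 samples. Mast cells of Pla2g3+/+ genotype and mast cells labelled Pla2g3-/- were profiled without fibroblasts and after 4 days on wild-type Swiss 3T3 cells, an established mouse embryo fibroblast line. Wild-type mast cells were profiled after 4 days on Lpar1+/+ or on Lpar1-/- Swiss 3T3 cells, the latter made with CRISPR/Cas9 and taken through single-cell cloning. All mast cells had been grown from marrow for 4 to 6 weeks in interleukin-3 (10 ng/ml). All 4 cocultures also received stem cell factor (100 ng/ml), whereas the sources used here state no stem cell factor for the other arrays, and no strain or age of the mice. After coculture, mast cells were taken as nonadherent cells or with CD117 beads, and which of these gave the arrayed RNA was not stated. The product of Pla2g3 is a phospholipase A2 that cells secrete, and LPA1, the product of Lpar1, is bound by lysophosphatidic acid. The design addresses how fibroblasts, mast cell Pla2g3 and fibroblast Lpar1 bear on mast cell maturation.

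Lysosomes degrade proteins, glycans and lipids with hydrolases that work at acid pH, and the vacuolar proton pump (V-ATPase) supplies that acid. Its peripheral V1 sector hydrolyses ATP, and its membrane V0 sector carries the protons. In mast cells the secretory granules are lysosome-related organelles: they hold beta-hexosaminidase and cathepsins beside the granule proteases, and CD63 reaches the cell surface when granules are released. The transcription factor TFEB and its relatives bind the E-box CACGTG in promoters of many lysosomal genes.

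The promoters of the genes often held that E-box. RefSeq promoter windows (250 bases before to 50 after a start, GRCm38.p6) were matched for 31 of the 39 genes, and none for Ctsb, Ctsh, Asah1, Npc1, Atp6v0d2, Atp6v1b2, Atp6v1c1 and Atp6v1h. CACGTG, which reads the same on both strands, was in a window of 13 of 31 genes (41.9%), against 2187 of 27025 genes of the whole table (8.09%). It was in 5 of 9 genes of the cathepsin group, 4 of 10 other hydrolases, 2 of 8 membrane and regulator genes and 2 of 4 proton pump genes. The longer TCACGTGA, which contains it, was in 6 of 31 (19.4%, against 1.12% of the table). The longest form searched, of 10 bases, contains both and was in 0 of 31, against 100 of 27025 genes (0.37%). Outside the 39, CACGTG was in 8 of 16 sorting genes and 4 of 19 membrane and transporter genes. It was in 4 of 19 genes of TFEB relatives and mTORC1 signalling, 2 of 15 other pump subunits and 3 of 27 other hydrolases. Of the other cathepsins 0 of 10 held it, and of the cathepsin inhibitors 0 of 10. A match is a description of the letters and not a binding site. The 7 stretches of 80 bases that follow lie upstream of an annotated start and outside every gene of the RefSeq table. They are shown because they hold the E-box in cathepsins, other hydrolases and membrane genes whose array values are given below. The capitals mark CACGTG, and each is written from 5′ to 3′ on the strand of its gene: Lamp1 chr8:13159081-13159160 (plus strand), Mcoln1 chr8:3500437-3500516 (plus strand), Ctsd chr7:142387883-142387962 (minus strand), Ctsf chr19:4855049-4855128 (plus strand), Gaa chr11:119267786-119267865 (plus strand), Naglu chr11:101069984-101070063 (plus strand), Glb1 chr9:114400993-114401072 (plus strand).
Lamp1: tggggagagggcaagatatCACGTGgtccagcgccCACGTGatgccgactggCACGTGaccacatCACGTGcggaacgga
Mcoln1: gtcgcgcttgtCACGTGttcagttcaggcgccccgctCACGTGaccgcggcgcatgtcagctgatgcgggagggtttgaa
Ctsd: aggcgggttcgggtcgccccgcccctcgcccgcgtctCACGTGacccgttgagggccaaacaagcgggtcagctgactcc
Ctsf: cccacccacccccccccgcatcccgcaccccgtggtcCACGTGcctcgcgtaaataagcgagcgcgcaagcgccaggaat
Gaa: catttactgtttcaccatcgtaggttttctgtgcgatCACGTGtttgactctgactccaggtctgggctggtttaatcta
Naglu: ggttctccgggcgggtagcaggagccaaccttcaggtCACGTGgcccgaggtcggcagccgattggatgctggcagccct
Glb1: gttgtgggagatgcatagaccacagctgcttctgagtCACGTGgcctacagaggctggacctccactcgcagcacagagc
Lamp1 carried 4 E-boxes within 80 bases of its start and Mcoln1 carried 2, whereas the other stretches hold 1. By the probe that stood for each of these genes, only Ctsf and Naglu were 2-fold higher in any of the 5 pairs of arrays compared. Only Glb1 was 2-fold lower by that probe. Other probes of Mcoln1, Ctsd and Gaa passed 2-fold in some pairs. For 13 genes with the E-box and 18 without it, the median log2 differences were 0.48 and 0.60 in the coculture of Pla2g3+/+ cells. They were 0.36 and 0.10 in that of cells labelled Pla2g3-/-, and -0.02 and 0.01 for the label without fibroblasts. For the Pla2g3-/- label in coculture they were -0.07 and -0.44, and for the Lpar1-/- fibroblasts -0.36 and -0.36.

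Levels are given as log2 of the scanner's processed intensity minus the 75th percentile of the same array, so that 0 is the 75th percentile. They follow 1 probe across arrays and do not rank genes. The 75th percentile lay between 1230 and 1520 intensity units, and 70.7% to 80.4% of the 43020 spots were well above background. The Pla2g3 probe went against its label: it was 113-fold brighter under Pla2g3-/- than under Pla2g3+/+ without fibroblasts and 44.4-fold brighter in coculture. Which part of the gene was deleted was not stated, so the probe may check nothing, and directions drawn from these arrays rest on their label. The Lpar1 probe does not check the fibroblasts, since its signal was highest on the arrays that held no fibroblasts. All 10 mast cell markers were well above background on every array, with a summed signal of 501 to 665 times the 75th percentile. With 1 array per group no difference had a replicate check and no test was possible. The scanner's own error of a difference was 0.20 to 0.23 on the log2 scale for these genes and covers the spot alone.

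Both wild-type cocultures, that of Pla2g3+/+ mast cells and that on Lpar1+/+ fibroblasts, gave a yardstick of how far separate cultures differ. Over 21913 genes well above background on both, 95% of their log2 differences lay within 0.535. Among the 39 lysosomal genes the standard deviation was 0.11. The largest difference was 0.37, for Ctsh, the aminopeptidase cathepsin H, and the other 38 genes lay within 0.23. None of the 39 differed 2-fold between them, whereas 0.792% of 24004 genes were higher and 0.167% lower, and none differed 1.5-fold, whereas 4.02% were higher and 1.83% lower. In what follows these 2 arrays are given in the order Pla2g3+/+, then Lpar1+/+.

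Coculture of Pla2g3+/+ mast cells went with higher transcripts of most of the 39 genes. At 2-fold or more 7 of 39 rose, namely Ctsl, Lgmn, Ctsk, Naglu, Cd68, Atp6v0d2 and Atp6v0a1, and 0 fell; 13.0% of all 22612 genes compared rose and 7.52% fell. The 39 genes had a median log2 difference of 0.48, against 0.14 over all genes compared, and 34 of 39 lay above 0. Of the 39, 22 were higher and 4 lower by more than the largest gap of the wild-type pair (0.37). That gap lies within 1 slide, so it does not measure the spread between slides that enters here. It is also the largest gap of these same 39 genes, and the share of all genes past it was not computed. The 22 and 4 therefore cannot be read as particular to the 39. At 1.5-fold 17 were higher (25.2% of all genes) and 3 lower (14.6%). In the mast cells labelled Pla2g3-/-, coculture raised only 3 of 39 at 2-fold (Ctsl, Lgmn and Ctsk) and lowered 3 (Ctsc, Ctss and Glb1), with 11.4% of 22342 genes higher and 7.28% lower, and the median was 0.13 against 0.12 over all genes. At 1.5-fold 10 were higher there (24.4% of all genes) and 3 lower (15.6%). These comparisons share no array and span the same slides: slide 1 held both arrays without fibroblasts and slide 2 the 4 cocultures. Coculture, its stem cell factor and the slide therefore cannot be told apart.

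The coculture effects of both mast cell labels differed for a part of the genes. In the difference of these effects the slide cancels; there 1 of 39 genes was at least 2-fold higher under the Pla2g3-/- label (Ctsf) and 7 were lower (Ctsk, Ctss, Naglu, Cd68, Atp6v0d2, Atp6v1a and Atp6v1h), against 10.5% and 13.4% of 23133 genes. The median of the 39 was -0.47, against -0.07 over all genes. Between the arrays without fibroblasts the labels were close for most genes: 3 of 39 were lower under Pla2g3-/- (Ctsh, Ctsl and Ctss) and 0 higher, with 1.57% of 21731 genes lower and 0.414% higher. The other 36 genes lay within 1.5-fold as well, a bound that 4.00% of all genes passed downward and 1.98% upward, and the median was -0.02.

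Within coculture, both the Pla2g3-/- label and Lpar1-/- fibroblasts went with lower transcripts of the lysosomal genes. Under the Pla2g3-/- label 7 of 39 were at least 2-fold lower (Ctsh, Ctsk, Ctss, Cd68, Atp6v0d2, Atp6v1a and Atp6v1h) and Ctsf was higher, when 10.4% of 22497 genes were lower and 9.11% higher. On Lpar1-/- fibroblasts 8 were lower (Ctsb, Ctsc, Ctsk, Ctss, Cd68, Atp6v0d2, Atp6v1a and Atp6v1h) and Ctsf and Ctsl were higher, when 8.86% of 24539 genes were lower and 11.3% higher. The medians of the 39 were -0.57 and -0.48, against -0.08 and -0.05 over all genes, and 30 of 39 lay below 0 in each. At 1.5-fold, 18 of 39 were lower under the Pla2g3-/- label (21.1% of all genes) and 1 higher (17.4%). On Lpar1-/- fibroblasts 15 of 39 were lower at 1.5-fold (18.5%) and 2 higher (20.3%). Naglu under the Pla2g3-/- label fell just short of 2-fold and was not counted, and Ctsc on Lpar1-/- fibroblasts was just past 2-fold and was counted, both at -1.0 when rounded.

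**Figure D1:**
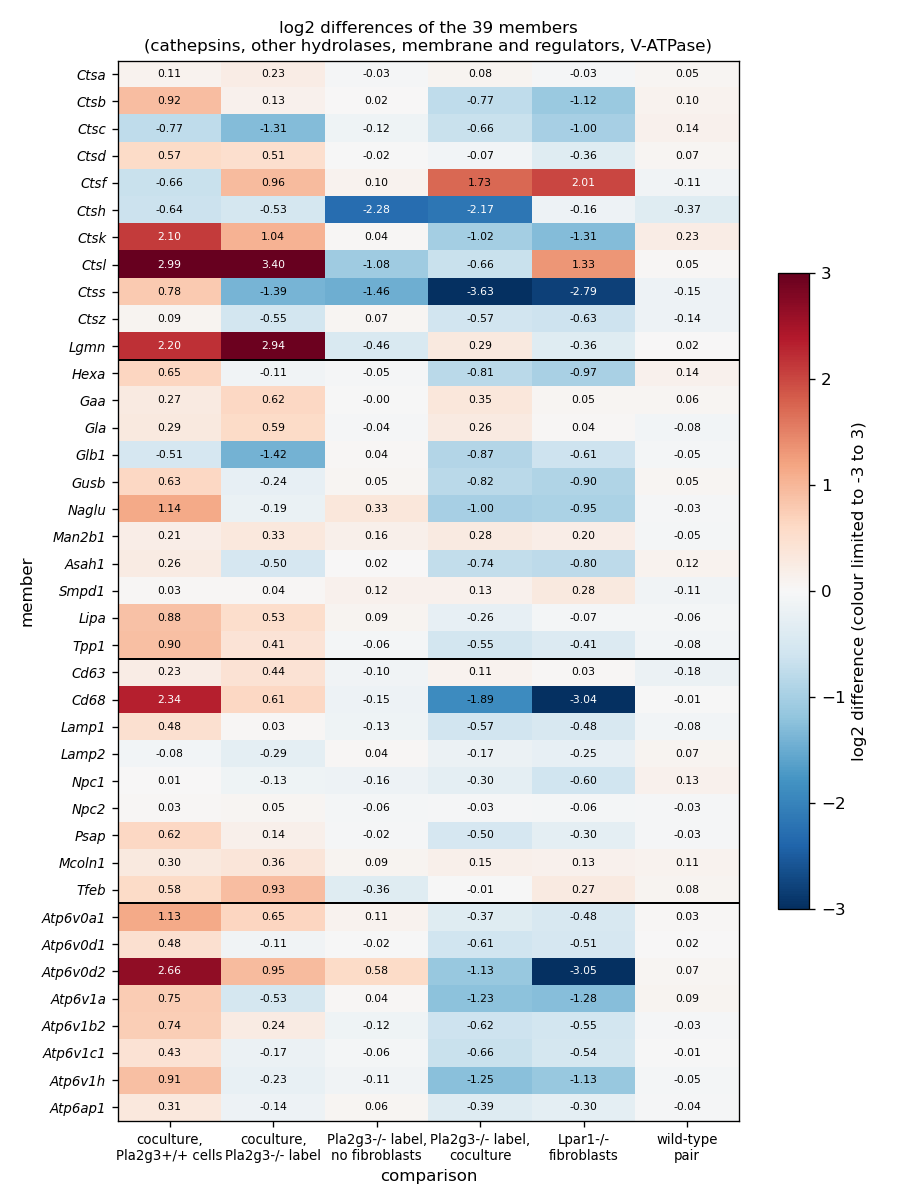
Log2 differences of all 39 lysosomal genes (rows, ordered by role between black lines) in 6 comparisons (columns), with the value printed in each cell and the colour running from -3 (blue) to 3 (red). The V-ATPase rows are above 0 in the first column and below 0 under the Pla2g3-/- label in coculture and on Lpar1-/- fibroblasts, and the wild-type pair in the last column stays within 0.37.

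The cathepsins divided into genes that followed coculture and genes that followed the labels. Ctsl encodes cathepsin L, an endopeptidase (probe on chromosome 13, 64465287 to 64465346, mm9). It read -1.25 on the Pla2g3+/+ and -2.32 on the Pla2g3-/- labelled array without fibroblasts, 1.74 and 1.78 in the wild-type cocultures, 1.08 in the labelled coculture and 3.12 on Lpar1-/- fibroblasts. Every coculture was above both arrays without fibroblasts. Coculture raised it 7.92-fold in Pla2g3+/+ cells and 10.5-fold under the Pla2g3-/- label, and on Lpar1-/- fibroblasts it was a further 2.52-fold higher. Without fibroblasts it was 2.11-fold lower under the label, or -0.93 with normexp. Lgmn encodes legumain, the asparaginyl endopeptidase that also processes cathepsins (chromosome 12, 103632415 to 103632474). It read -1.06 and -1.51 without fibroblasts, 1.14 and 1.16 in the wild-type cocultures, 1.43 in the labelled one and 0.80 on Lpar1-/- fibroblasts. The cocultures did not overlap the arrays without fibroblasts, and the rises were 4.58-fold and 7.67-fold. Neither fibroblast Lpar1 (-0.36) nor the Pla2g3 label in coculture (0.29) moved Lgmn past 2-fold.

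Ctsk encodes cathepsin K, the collagen-degrading enzyme best known from osteoclasts (chromosome 3, 95313165 to 95313224). It read -5.0 and -4.96 without fibroblasts, -2.89 and -2.66 in the wild-type cocultures, and -3.92 and -3.97 in the labelled and the Lpar1-/- coculture. The latter pair thus lay between the arrays without fibroblasts and the wild-type cocultures. The rise with coculture was 4.30-fold in Pla2g3+/+ cells and 2.06-fold under the label, and within coculture the gene was 2.03-fold lower under the label and 2.47-fold lower on Lpar1-/- fibroblasts. With normexp background correction the last 3 differences became 0.56, -0.69 and -0.92, within 2-fold, and the rise in Pla2g3+/+ cells stayed past it. Ctsb, cathepsin B, an endopeptidase that also trims peptides from their carboxyl end, read 3.97 and 3.99 without fibroblasts, 4.89 and 4.99 in the wild-type cocultures, 4.12 under the label and 3.88 on Lpar1-/- fibroblasts. Its signal was high in the wild-type cocultures alone, and the difference on Lpar1-/- fibroblasts was 2.17-fold (-0.89 after quantile normalization).

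Ctss, Ctsh and Ctsf showed the label most clearly. Ctss encodes cathepsin S, which cleaves the invariant chain in antigen-presenting cells (chromosome 3, 95360245 to 95360304). It read -0.83 and -2.29 without fibroblasts, -0.05 and -0.20 in the wild-type cocultures, -3.68 under the label and -2.99 on Lpar1-/- fibroblasts. It was 12.4-fold lower under the Pla2g3-/- label in coculture, 6.91-fold lower on Lpar1-/- fibroblasts and 2.75-fold lower under the label without fibroblasts. Its coculture effects ran in opposite directions, 0.78 in Pla2g3+/+ cells and -1.39 under the label. Ctsh, cathepsin H, an aminopeptidase, read -2.55 and -4.82 without fibroblasts, -3.19 and -3.56 in the wild-type cocultures, -5.35 under the label and -3.71 on Lpar1-/- fibroblasts. Both arrays labelled Pla2g3-/- were lower than the other 4, by 4.85-fold without fibroblasts and 4.49-fold in coculture, and the Lpar1-/- array stood with the wild type.

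Ctsf, a cysteine cathepsin, was the only gene of the 39 that was at least 2-fold higher both under the Pla2g3-/- label in coculture and on Lpar1-/- fibroblasts (chromosome 19, 4860454 to 4860513). It read -1.02 and -0.92 without fibroblasts, -1.68 and -1.79 in the wild-type cocultures, 0.04 under the label and 0.22 on Lpar1-/- fibroblasts. The wild-type cocultures were the lowest and the other cocultures the highest arrays, 3.31-fold and 4.01-fold apart. Ctsc, the dipeptidyl peptidase that activates granule serine proteases, was lower in every coculture: it read 4.42 and 4.30 without fibroblasts, 3.65 and 3.78 in the wild-type cocultures, 2.99 under the label and 2.78 on Lpar1-/- fibroblasts. It was 2.48-fold lower with coculture under the label, and its probes disagreed in size. The second probe gave -0.22 against -0.77 with coculture of Pla2g3+/+ cells, -1.87 against -0.66 under the label in coculture, which is past 2-fold, and -1.84 against -1.0 on Lpar1-/- fibroblasts. By the brighter probe the last difference ended within 2-fold under 4 of the other settings (-0.82 to -1.0). Ctsa, a carboxypeptidase that protects other lysosomal enzymes, ranged over 0.23 across the 6 arrays by its brighter probe. Its second probe gave 0.81 against 0.11 with coculture of Pla2g3+/+ cells. With coculture under the label that probe gave 1.04 against 0.23, which is past 2-fold. Ctsz, another carboxypeptidase, ranged over 0.77. Ctsd, the aspartic protease cathepsin D, was 0.57 and 0.51 higher with coculture, but its second probe gave 1.19 and 0.32, and -1.09 rather than -0.36 on Lpar1-/- fibroblasts.

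**Figure D2:**
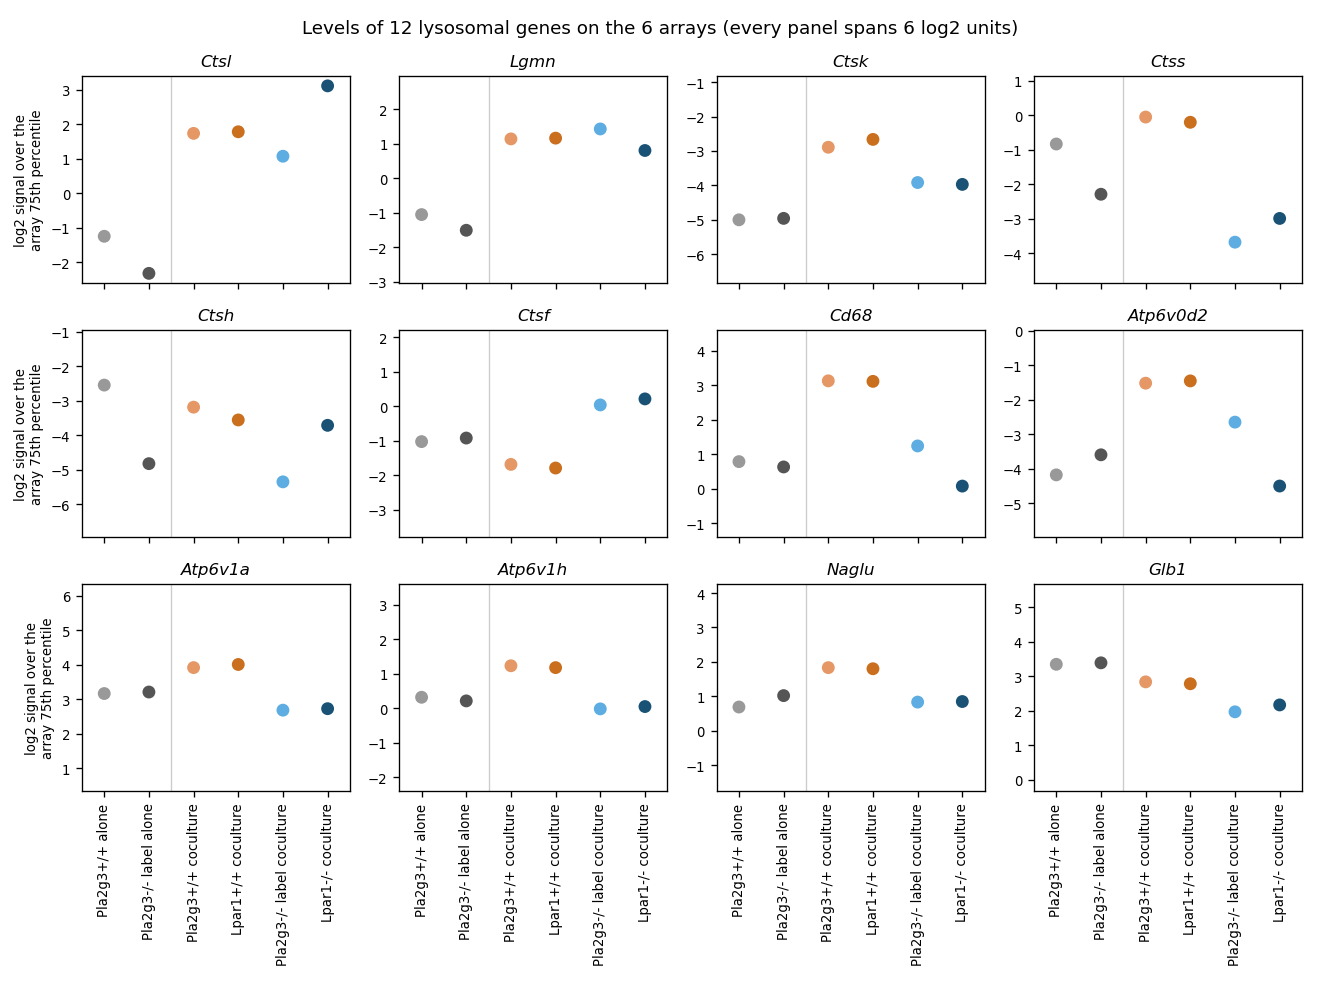
Log2 level of 12 lysosomal genes on each of the 6 arrays, 1 point per array, with arrays without fibroblasts left of the grey line, wild-type cocultures in orange and the Pla2g3-/- labelled and Lpar1-/- cocultures in light and dark blue. The wild-type cocultures lie next to each other in every panel (at most 0.37 apart). For Ctss, Ctsk, Cd68, Atp6v0d2, Atp6v1a, Atp6v1h, Naglu and Glb1 both blue points lie below them. Both do so for Ctsh as well, where the Lpar1-/- point is close to the wild-type ones.

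Of the other hydrolases 1 of 11 (9.09%) was higher with coculture in Pla2g3+/+ cells, when 13.0% of all genes were, and 1 of 11 was lower with coculture under the label, when 7.28% of all genes were. Naglu, which removes N-acetylglucosamine from heparan sulfate (chromosome 11, 100938631 to 100938690), read 0.69 and 1.02 without fibroblasts, 1.84 and 1.80 in the wild-type cocultures, 0.84 under the label and 0.85 on Lpar1-/- fibroblasts. It rose 2.21-fold with coculture in Pla2g3+/+ cells and differed by -0.19 under the label. Glb1, beta-galactosidase, read 3.34 and 3.38 without fibroblasts, 2.83 and 2.78 in the wild-type cocultures, 1.96 under the label and 2.16 on Lpar1-/- fibroblasts. All cocultures were below the arrays without fibroblasts, and under the label the fall was 2.68-fold.

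Within coculture most of the hydrolases fell into 2 sets, neither of which passed 2-fold by the probe that stood for each gene. Hexa, the alpha subunit of beta-hexosaminidase, whose release is the usual measure of mast cell degranulation, read 2.95 and 2.90 without fibroblasts, 3.60 and 3.74 in the wild-type cocultures, 2.79 under the label and 2.76 on Lpar1-/- fibroblasts. Its differences were -0.81 and -0.97. Gusb, beta-glucuronidase, gave -0.82 and -0.90, Asah1, acid ceramidase, -0.74 and -0.80, Glb1 -0.87 and -0.61, and Naglu -1.0 and -0.95. Each of these 5 differences was larger than the 0.37 of the wild-type pair under both labels. The second probe of Gusb gave -0.56 and -1.12, the latter past 2-fold. The glycogen-degrading Gaa (0.35 and 0.05), the alpha-galactosidase Gla (0.26 and 0.04), the mannosidase Man2b1 (0.28 and 0.20) and the sphingomyelinase Smpd1 (0.13 and 0.28) lay above 0 in both and within 0.37. The 3 probes of Gaa disagreed, with values from -0.50 to 1.05 on Lpar1-/- fibroblasts. Tpp1, a tripeptidyl peptidase (-0.55 and -0.41), and Lipa, the acid lipase (-0.26 and -0.07), lay between these sets. Over the 11 hydrolases the medians were -0.55 and -0.41, with 7 of 11 below 0 in each.

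Among the membrane, transport and regulator genes Cd68 changed most. Cd68 encodes macrosialin, a relative of the LAMP proteins that is abundant in macrophages (chromosome 11, 69477775 to 69477834). It read 0.79 and 0.63 without fibroblasts, 3.13 and 3.12 in the wild-type cocultures, 1.24 under the label and 0.08 on Lpar1-/- fibroblasts. The wild-type cocultures were the highest arrays, 5.07-fold above Pla2g3+/+ cells alone, and the labelled and Lpar1-/- cocultures were 3.70-fold and 8.21-fold below them. Its second probe gave 2.85, -2.42 and -3.23 in these comparisons.

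The structural membrane proteins and lipid carriers moved little. Lamp1, the main glycoprotein of the lysosomal membrane, read 5.21 and 5.08 without fibroblasts, 5.68 and 5.61 in the wild-type cocultures, 5.11 under the label and 5.13 on Lpar1-/- fibroblasts. Its wild-type cocultures were the highest arrays, by 0.57 and 0.48 over the other 2 cocultures. Psap, the precursor of the saposins that present lipids to hydrolases, differed by -0.50 and -0.30 in the same comparisons. With coculture Psap was 0.62 higher in Pla2g3+/+ cells and 0.14 higher under the label. Npc2, the soluble cholesterol carrier, ranged over 0.09 across the 6 arrays, Lamp2, which takes part in chaperone-mediated autophagy, over 0.30, and Cd63, the granule tetraspanin, over 0.44. The second probe of Lamp2 gave -0.50 under the label in coculture and -0.45 on Lpar1-/- fibroblasts, against -0.17 and -0.25 by the brighter probe. Npc1, the membrane partner of Npc2, was 0.60 lower on Lpar1-/- fibroblasts. Tfeb, the regulator itself, read -5.85 and -6.21 without fibroblasts, -5.26 and -5.19 in the wild-type cocultures, -5.27 under the label and -4.91 on Lpar1-/- fibroblasts. It thus did not pass 2-fold in any comparison, although its second probe, above background on 4 arrays, gave -2.97 for coculture under the label. Mcoln1, the calcium channel of lysosomes, was at 0.15 and 0.13 for the labels in coculture by its brighter probe and at 1.46 and 1.53 by the other, so both probes lay above 0 and disagreed on whether 2-fold was passed.

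The genes of the proton pump had the same sign in 3 of the 5 comparisons. All 8 V-ATPase genes lay above 0 with coculture of Pla2g3+/+ cells (median 0.75), and all 8 lay below 0 under the Pla2g3-/- label in coculture (median -0.64) and on Lpar1-/- fibroblasts (median -0.54). With coculture of the cells labelled Pla2g3-/- they did not share a sign: 3 lay above 0 and 5 below (median -0.13), and none passed 2-fold. Under the other settings tried 7 or 8 of 8 stayed below 0 under the label in coculture and on Lpar1-/- fibroblasts, and the exception was Atp6v0a1 with the mean of its probes. For comparison, 41.3% of all genes compared lay below 0 with coculture, and 55.4% and 52.8% under the 2 labels. Without fibroblasts the label left the 8 genes between -0.12 and 0.58.

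In the V1 sector, Atp6v1a, the catalytic A subunit (chromosome 16, 44085826 to 44085885), read 3.16 and 3.21 without fibroblasts, 3.91 and 4.00 in the wild-type cocultures, 2.68 under the label and 2.72 on Lpar1-/- fibroblasts. The latter 2 arrays lay below all others, 2.35-fold and 2.43-fold under their wild-type partners, and a second probe gave -1.36 and -1.40. Atp6v1h, the H subunit that couples V1 to V0 (chromosome 1, 5123207 to 5123266), read 0.32 and 0.22 without fibroblasts, 1.24 and 1.18 in the wild-type cocultures, -0.01 under the label and 0.05 on Lpar1-/- fibroblasts. Its pattern was the same, with 2.38-fold and 2.19-fold lower signal. Atp6v1b2, a B subunit (-0.62 and -0.55), and Atp6v1c1, a C subunit (-0.66 and -0.54), stayed within 2-fold but beyond the wild-type gap.

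In the V0 sector the isoforms of the d subunit differed. Atp6v0d2, the isoform prominent in osteoclasts and macrophages (chromosome 4, 19805367 to 19805426), read -4.18 and -3.60 without fibroblasts, -1.52 and -1.46 in the wild-type cocultures, -2.65 under the label and -4.50 on Lpar1-/- fibroblasts. The wild-type cocultures were the highest arrays, and the Lpar1-/- coculture was the lowest of all 6. It rose 6.32-fold with coculture, and was 2.19-fold lower under the label (-0.91 with normexp) and 8.28-fold lower on Lpar1-/- fibroblasts. Atp6v0d1, the widely expressed isoform, read 3.56 and 3.54 without fibroblasts, 4.04 and 4.05 in the wild-type cocultures, 3.43 under the label and 3.55 on Lpar1-/- fibroblasts. It moved in the same directions within 2-fold. Atp6v0a1, an a subunit of the proton path, rose 2.19-fold with coculture (0.57 by its second probe, 0.85 by the mean of probes and 0.88 with normexp), and the probes disagreed in sign under the labels, at -0.37 and -0.48 against 0.45 and 0.71. Atp6ap1, an accessory subunit, was at -0.39 and -0.30.

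Another 16 subunits of the pump were compared. Together with the 8 genes, 23 of 24 lay above 0 with coculture of Pla2g3+/+ cells, 22 of 24 below 0 under the Pla2g3-/- label and 21 of 24 below 0 on Lpar1-/- fibroblasts, whereas with coculture under the label 11 lay above 0 and 13 below (median -0.09). Tcirg1, the a3 subunit, read -0.21 and -0.17 without fibroblasts, 1.27 and 1.35 in the wild-type cocultures, 0.27 under the label and 0.25 on Lpar1-/- fibroblasts. It was 2.80-fold higher with coculture and 2.01-fold and 2.14-fold lower under the labels, both within 2-fold with the percentile over probes above background on every array (-0.93 and -0.98). Atp6v1g2, a G subunit isoform known from neurons, went the other way, with -2.28 and -2.21 without fibroblasts, -2.89 and -2.86 in the wild-type cocultures, and -1.24 and -1.22 under the label and on Lpar1-/- fibroblasts. It was 3.14-fold and 3.11-fold higher there than in the wild type.

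**Figure D3:**
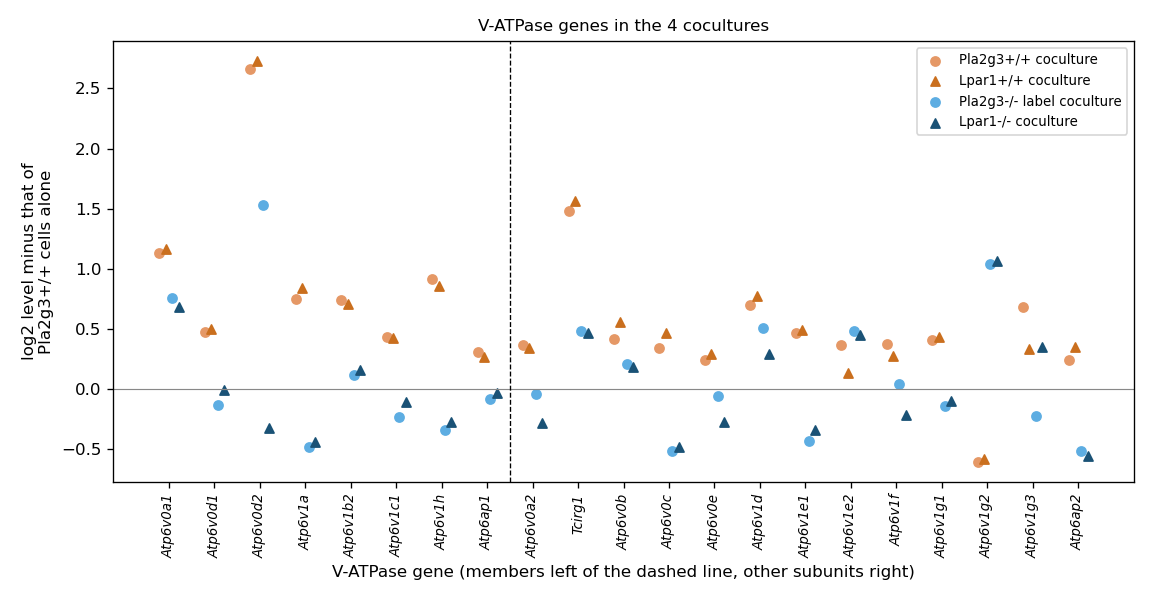
Log2 level of V-ATPase genes in the 4 cocultures minus the level in Pla2g3+/+ cells without fibroblasts, 1 point per array, for the 8 genes (left of the dashed line) and for other subunits well above background on every array (right). The orange wild-type points lie above the blue points for all 8 genes, and Atp6v1g2 shows the reverse.

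The Pla2g3-/- label in coculture and the Lpar1-/- fibroblasts gave like differences over the 39 genes, in comparisons that share no array but lie on the same slide and use the same fibroblast line. Of the 39, 35 had the same sign, 28 of them below 0, and the correlation across genes was r = 0.76 (rho = 0.81, n = 39). Over all 22424 genes compared in both, 18306 had the same sign, and the correlation was r = 0.83 (rho = 0.80). Genes are not independent replicates, and r for the 39 lay below r for all genes. Of the 7 genes lower under the label 6 were also lower on Lpar1-/- fibroblasts, where they were 6 of 8: Ctsk, Ctss, Cd68, Atp6v0d2, Atp6v1a and Atp6v1h. Over all genes compared in both, 1540 of the 2342 lower under the label were also lower on Lpar1-/- fibroblasts. Ctsl, Ctsh, Atp6v0d2 and Cd68 stood apart. Ctsl was at -0.66 and 1.33, Ctsh at -2.17 and -0.16, Atp6v0d2 at -1.13 and -3.05 and Cd68 at -1.89 and -3.04; the difference between the labels was not tested.

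**Figure D4:**
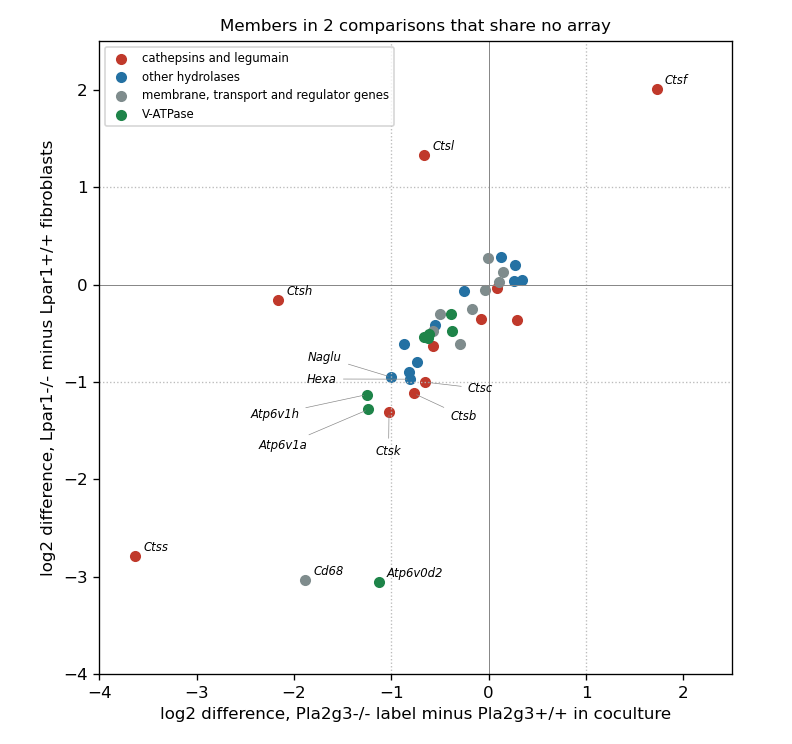
Log2 difference of each of the 39 genes under the Pla2g3-/- label in coculture (horizontal) against that on Lpar1-/- fibroblasts (vertical), coloured by role, with dotted lines at 2-fold. Most points lie near a rising line through the lower left, 28 of 39 below 0 on both axes, with Ctsl and Ctsh away from it and Ctsf alone at the upper right.

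Lysosomal genes outside the 39 were counted beside the shares of all genes. Of all genes compared, 13.0% were higher and 7.52% lower with coculture in Pla2g3+/+ cells, 9.11% higher and 10.4% lower under the label in coculture, and 11.3% higher and 8.86% lower on Lpar1-/- fibroblasts. Of 34 other hydrolases 3 (8.82%) were higher with coculture in Pla2g3+/+ cells, 3 lower and 1 higher under the label in coculture, and 2 lower and 2 higher on Lpar1-/- fibroblasts (medians 0.16, -0.10 and -0.04). Scpep1, a serine carboxypeptidase, read -1.05 and -1.49 without fibroblasts, 2.57 and 2.95 in the wild-type cocultures, 0.69 under the label and 1.07 on Lpar1-/- fibroblasts. It was 12.3-fold higher with coculture and 3.66-fold and 3.68-fold lower under the labels. Acp5, tartrate-resistant acid phosphatase, read -4.18 and -4.19 without fibroblasts, -2.51 and -2.38 in the wild-type cocultures, -5.26 under the label and -5.34 on Lpar1-/- fibroblasts, which placed both of the latter below every other array. Among 23 other membrane and transporter genes 4 (17.4%) were higher with coculture, and 4 and 3 were lower under the labels (medians 0.30, -0.01 and -0.21). Scarb2, the receptor that carries glucocerebrosidase to the lysosome, read -1.80 and -1.92 without fibroblasts, 0.15 and 0.10 in the wild-type cocultures, -1.37 under the label and -1.48 on Lpar1-/- fibroblasts. Of 20 sorting genes 3 (15%) were higher with coculture and 0 lower (median 0.30). Igf2r, the cation-independent mannose-6-phosphate receptor, was 5.25-fold higher in Pla2g3+/+ cells and 6.81-fold higher under the label, and Gga2, an adaptor for such receptors, was 2.22-fold and 2.20-fold lower under the labels in coculture.

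Transcripts of other cell types were present, and their markers moved with these genes in some comparisons and not in others. In such RNA, fewer cells of a type and less RNA per cell cannot be told apart. The summed signal of 15 fibroblast markers was 0.47 and 0.285 times the 75th percentile without fibroblasts, 34.2 and 35.5 in the wild-type cocultures, 15 under the Pla2g3-/- label and 35.5 on Lpar1-/- fibroblasts. Of 13 fibroblast markers compared, 12 were higher with coculture of Pla2g3+/+ cells (13.0% of all genes) and 1 lower (7.52%). Under the label in coculture 8 of 13 were lower (10.4% of all genes). On Lpar1-/- fibroblasts 0 of 14 were lower (8.86% of all genes) and 4 higher (11.3%). The median difference of the fibroblast markers on Lpar1-/- fibroblasts was -0.17. The part of fibroblast RNA in the lysosomal differences was not tested.

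Some macrophage markers were lower beside Ctss, Cd68 and Atp6v0d2, and others were not. The median level of 12 macrophage markers was -4.30 and -4.63 without fibroblasts, -2.81 and -2.81 in the wild-type cocultures, -4.75 under the label and -4.15 on Lpar1-/- fibroblasts. Gene by gene, 4 of 11 were higher (13.0% of all genes) and 2 lower (7.52%) with coculture of Pla2g3+/+ cells, with a median difference of 0.26. Under the label 5 of 11 were lower (10.4% of all genes) and 1 higher (9.11%), with a median of -0.85. On Lpar1-/- fibroblasts 4 of 12 were lower (8.86% of all genes) and 1 higher (11.3%), with a median of -0.23. The higher one was Itgax, the integrin CD11c, by 2.93 and 2.66. Mrc1, the macrophage mannose receptor, read -5.65 and -7.58 without fibroblasts, -2.37 and -2.37 in the wild-type cocultures, -9.21 under the label and -7.60 on Lpar1-/- fibroblasts. Csf1r, the receptor for macrophage colony-stimulating factor, ranged from -0.77 to -1.29 over the 4 cocultures, and the summed macrophage signal from 1.63 to 1.93. The summed signal of 7 osteoclast markers was 2.45 and 2.32 in the wild-type cocultures, 3.82 under the label and 3.23 on Lpar1-/- fibroblasts. Of those compared, 1 of 5 was 2-fold lower under the label (10.4% of all genes) and 1 of 6 on Lpar1-/- fibroblasts (8.86%), Acp5 in both. Dcstamp was well above background on 0 arrays and Calcr on 1. The part of macrophage RNA in the lower signal of these genes was not tested.

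Some markers of several other blood cells were lower on the array without fibroblasts on which Ctss, Ctsh and Ctsl were lower. The summed neutrophil signal was 41.3 on the Pla2g3+/+ array and 2.71 under the label without fibroblasts, with 9 of 10 lower, and it was 4.40 and 4.85 in the wild-type cocultures, 1.96 under the label and 13.6 on Lpar1-/- fibroblasts. Under the label without fibroblasts 6 of 9 eosinophil, 5 of 11 macrophage, 2 of 5 platelet and 2 of 4 basophil markers were also lower and 0 of each higher. Their summed signals on the Pla2g3+/+ and the labelled array were 2.24 and 0.388 for eosinophil and 1.9 and 1.29 for macrophage markers. For platelet markers they were 42.2 and 34.9. The basophil sums were 22.4 and 23.2, so that sum was not lower. Of all genes in that comparison, 1.57% were lower and 0.414% higher. The part of RNA from these cells in the differences was not tested.

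**Figure D5:**
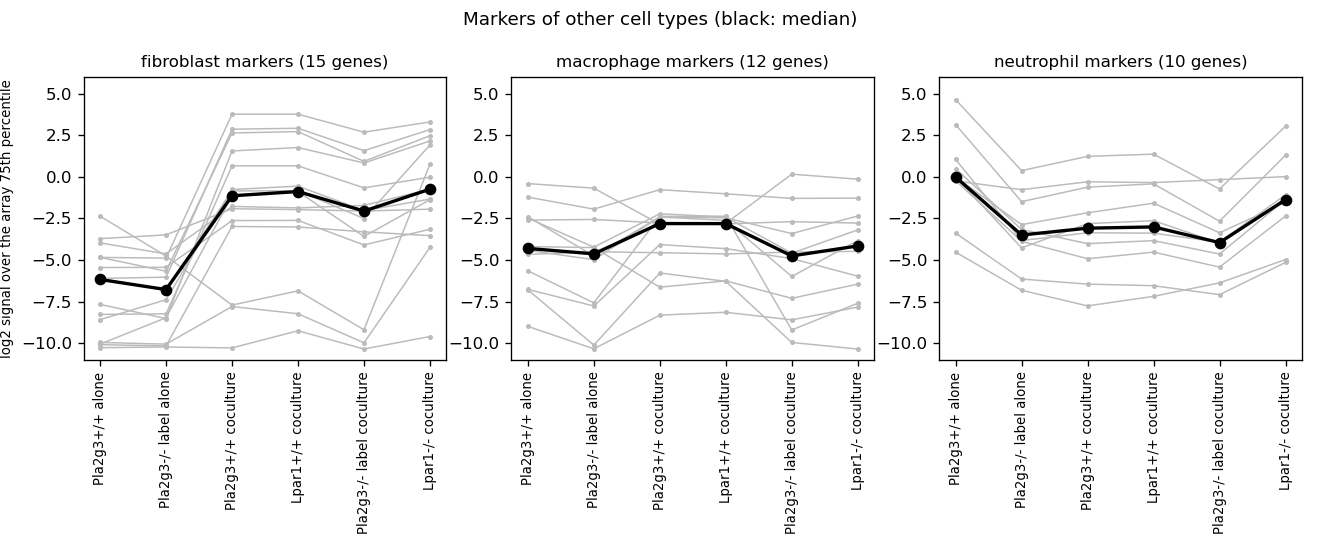
Log2 level of fibroblast (15), macrophage (12) and neutrophil (10) marker genes on the 6 arrays, 1 grey line per gene and the median in black. Fibroblast markers are high in all 4 cocultures, the macrophage median is highest in the wild-type cocultures (-2.81), and neutrophil markers are highest on the Pla2g3+/+ array without fibroblasts.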

How the data were processed

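Messenger RNA of 6 pools, 1 per group, was measured on single-colour Cy3 Agilent arrays. Spot intensity came from the authors' scans through version 12.1.1.1 of Agilent's Feature Extraction software; the file headers record background subtraction and a surrogate for dim spots. The deposited value table gives linear signal values; each equals the processed intensity divided by 1 constant per array (medians 0.0380 to 0.0534), with no centring of genes found. Probe coordinates are on mm9, for which no gene models were at hand, and the probes' place within transcripts is therefore left out.

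From the intensity, log2 minus the array's 75th percentile over 43020 noncontrol spots was computed; outlier spots (84 to 115 per array) were dropped, no spot was saturated, and spots of a probe were averaged (39416 of 39429 probes). Genes carry the name in the files, and 1 marker was found through a RefSeq synonym (Emr1, now Adgre1). A gene was compared where at least 1 array was well above background, and called at 2-fold. Where 1 array was dim the difference is a bound. The number of arrays limits precision, and the sources used here do not say whether the pools came from separate animals. Alternatives covered background correction (limma 3.58.1, R 4.3.3, offset 50), quantile normalization, the percentile's probes, dim-probe filters, the mean of probes, a 1.5-fold bound, the deposited table and the other wild-type coculture. Scripts (Python 3.11.15, numpy 2.4.6, pandas 2.3.3) were tested on simulated data. The 39 genes, the lists and the markers were chosen with earlier results of these data known. Named genes are the 39, up to 3 highest and 3 lowest past 2-fold per other list and comparison, and the markers.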

Additional observations from a re-analysis of the deposited data

Results flagged for a closer look

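For 6 genes the coculture effects of both mast cell labels ran in opposite directions, each beyond the 0.535 within which 95% of wild-type pair differences lay, and the difference was not tested. That bound comes from 1 slide, so it does not measure the spread between slides that enters each effect. The share of all genes that met this rule was not computed. With 2-fold as the bound, 220 of 21821 genes and 0 of the 39 ran in opposite directions. Among the 39 genes these were Ctss, with 0.78 in Pla2g3+/+ cells and -1.39 under the Pla2g3-/- label (difference -2.17), and Ctsf, with -0.66 and 0.96 (difference 1.62). Among other lysosomal genes, Gpnmb, a membrane glycoprotein that MiT/TFE factors regulate, gave 2.49 and -2.51 (difference -5.0), and Acp5 gave 1.67 and -1.07 (difference -2.74). With normexp the values under the label were -0.90 for Gpnmb and -0.44 for Acp5. Ctso, cathepsin O, gave -1.44 and 0.80 (difference 2.24), and Atp6v1g2 gave -0.60 and 0.97 (difference 1.58). The Lpar1-/- coculture stood on the side of the labelled coculture for all 6: its levels were -2.99 for Ctss, 0.22 for Ctsf, -6.45 for Gpnmb, -5.34 for Acp5, -2.43 for Ctso and -1.22 for Atp6v1g2.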

How the results depend on the processing

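Over the 5 settings that could move a call of the 39 genes, 147 of 161 values of called genes kept direction and side of the 2-fold bound, 14 fell short of it (7 with normexp, 3 with quantile normalization, 2 with the percentile over probes above background on every array, 1 with the mean of probes and 1 with the other wild-type array) and 0 reversed. These concern Atp6v0a1, Atp6v0d2, Ctsb, Ctsc, Ctsk and Ctsl. Of 793 values of other lysosomal genes over all settings, 51 fell short and 1 reversed. Stfa1 with coculture under the Pla2g3-/- label was 0.58 with the mean of probes against -1.78. The 793 include the 1.5-fold bound, the absence of a dim-probe filter and the deposited table, each with all 91 values kept. A looser bound or filter cannot undo a call, so the 793 and the 161 have unlike bases. The median of the 39 on Lpar1-/- fibroblasts (-0.48) was -0.30 after quantile normalization and -0.36 with that percentile. Under that percentile 6 rather than 3 genes were higher with coculture under the label, and with the other wild-type array 1 rather than 0 was lower with coculture in Pla2g3+/+ cells. At 1.5-fold, 17 were higher and 3 lower there, 10 higher with coculture under the label, 18 lower under the label in coculture and 15 lower on Lpar1-/- fibroblasts. Over all genes the share of calls that were higher with coculture was 63.4% in Pla2g3+/+ cells and 61.0% under the label, and 48.9% and 50.3% after quantile normalization, which moved the median of all genes from 0.14 to -0.00 and from 0.12 to 0.02; normexp moved it from -0.08 to 0.12 for the label in coculture. Normexp also left fewer calls over all genes, 1397 higher and 1035 lower with coculture in Pla2g3+/+ cells against 2949 and 1700, and 1339 and 1210 against 2049 and 2343 under the label in coculture. The causes were not tested. No paired analysis was possible because each group had 1 array, and for the same reason no replicate could be left out.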

Other observations

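Several genes that inhibit cathepsins, and cathepsin E, changed. Of 12 cathepsin inhibitors 4 were lower (7.52% of all genes) and 1 higher (13.0%) with coculture in Pla2g3+/+ cells. Under the Pla2g3-/- label without fibroblasts 4 of 10 were lower (1.57% of all genes). Under the label in coculture 3 of 12 were lower (10.4% of all genes). The lower ones named are stefin A family genes, whose members are near-identical, so that the probe's gene is uncertain: Stfa1 was 11.6-fold lower with coculture in Pla2g3+/+ cells, 28.6-fold lower under the label without fibroblasts and 8.53-fold lower under it in coculture, beside the neutrophil markers above. On Lpar1-/- fibroblasts 3 of 12 inhibitors were higher (11.3% of all genes) and 1 lower (8.86%). Cstb, the intracellular inhibitor cystatin B, was that lower one: it read 3.22 and 3.21 without fibroblasts, 4.62 and 4.69 in the wild-type cocultures, 3.70 under the label and 2.95 on Lpar1-/- fibroblasts. Ctse, the aspartic protease cathepsin E, read -0.79 without fibroblasts in Pla2g3+/+ cells and 3.87 under the label, -0.87 and -0.93 in the wild-type cocultures, 4.23 under the label and 0.21 on Lpar1-/- fibroblasts. Both arrays labelled Pla2g3-/- were thus the highest, by 25.3-fold and 34.5-fold.

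Among 20 genes of MiT/TFE factors and of mTORC1 signalling at the lysosome, 3 (15%, against 13.0% of all genes) were higher with coculture in Pla2g3+/+ cells. Under the label in coculture 2 (10.0%, against 10.4%) were lower and 1 higher, and on Lpar1-/- fibroblasts 4 (20.0%, against 8.86%) were lower. Gpnmb read -3.49 and -4.07 without fibroblasts, -1.0 and -1.26 in the wild-type cocultures, -6.58 under the label and -6.45 on Lpar1-/- fibroblasts. It was 47.7-fold and 36.5-fold lower under the labels. The factor genes Mitf and Tfe3 moved within 2-fold. Mitf, the master regulator of mast cell genes, ranged from 3.99 to 4.33 over the 6 arrays. Tfe3 read 3.21 and 3.33 in the wild-type cocultures, 2.88 under the label and 2.57 on Lpar1-/- fibroblasts. Tfec, another factor gene, was well above background on 3 arrays, and its differences are bounds. It was at least 3.58-fold lower under the label without fibroblasts, 2.9-fold lower under it in coculture and 2.72-fold lower on Lpar1-/- fibroblasts. With normexp these values were -0.29, -0.095 and -0.23, within 2-fold.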
